A study of Homo sapiens with 9 samples.

Results

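Laminins are the cell-binding glycoproteins of basement membranes, and integrins are the receptors through which cells hold on to them and to other matrix. The genes described here are the protein-coding genes for laminin alpha, beta and gamma chains and for integrin alpha and beta chains, picked by symbol from the deposited count table. The rule found 38 genes of 19672 protein-coding genes, 12 for laminin chains, 18 for integrin alpha chains and 8 for integrin beta chains. The 9 RNA sequencing libraries came from H9, an established line of human embryonic stem cells (hESC), in 3 groups of 3. The groups were hESC that were not differentiated, neural progenitor cells (NPC) after 11 days of differentiation towards midbrain dopaminergic neurons (control NPC), and day 11 NPC given bafilomycin A1 (BafA1 NPC). Both NPC groups had 200 nM LDN193189 and 10 µM SB431542, inhibitors of BMP and TGF-beta type I receptors, purmorphamine at 2 µM, a Hedgehog agonist, and CHIR99021 at 3 µM, a GSK3 inhibitor. BafA1, which blocks the proton pump of lysosomes, was used at 10 nM in 6 h exposures, and the days on which the sequenced cells received it were not given in the sources used here. Libraries of a group are labelled as biological replicates, but separate cultures are not described, so p-values measure only the spread between these libraries, all from 1 cell line.

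Every laminin is a trimer of an alpha, a beta and a gamma chain, and the alpha chain carries the main integrin-binding site. Integrins are pairs of an alpha and a beta chain: alpha chains 3, 6 and 7 with beta1, or alpha 6 with beta4, bind laminin, alpha chains 1, 2, 10 and 11 bind collagen, and alpha 5, 8, V and IIb bind proteins with the RGD peptide such as fibronectin and vitronectin. In the early embryo and the neural tube, progenitors touch a laminin-rich basement membrane, and pluripotent stem cells are commonly grown on laminin or vitronectin. The RNA was from mixed cells in bulk, so fewer cells of a type and less RNA per cell cannot be told apart.

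Total counts per library were 43124679 to 69703791. The labels were set against marker genes. The 8 pluripotency markers summed to between 5662 and 5977 CPM (counts scaled to library size by edgeR's TMM method) in hESC, between 619 and 671 in control NPC and between 840.2 and 909.5 with BafA1, with POU5F1, TDGF1 and PRDM14 at 0 in control NPC. LIN28A made up most of the sum in both NPC groups, with means of 1176 CPM in hESC, 537 in control NPC and 786 with BafA1. All 8 were lower in control NPC than in hESC, and 2 were higher (LIN28A and ZFP42) and 2 lower (DPPA4 and DNMT3B) in BafA1 NPC than in control NPC. The 10 midbrain floor plate markers summed to between 330.3 and 362, between 752 and 1085 and between 937 and 1116 CPM, with EN1 at 0 in hESC. SOX2, OTX2 and FOXA2 made up most of the hESC sum, with means of 216, 68.5 and 62.3 CPM there. All 10 floor plate markers were higher in control NPC than in hESC. In BafA1 NPC 3 were higher (FOXA2, MSX1 and SOX2) and 2 lower (LMX1B and SOX1) than in control NPC. The 10 mesenchyme and fibroblast markers also differed, between 179.5 and 195 CPM in hESC, between 1803 and 2939.8 in control NPC and between 3358 and 3737 with BafA1, with LUM at 0 in hESC. All 10 of them were higher in control NPC than in hESC, and 5 were higher and 3 lower in BafA1 NPC than in control NPC.

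Of the 38 genes, 34 had enough counts to be tested, and ITGAD, ITGAX, ITGB6 and LAMB4 did not. ITGAD had no count in any library, which allows up to 3 counts per library, and the others had group means of at most 0.138 CPM. Levels of different genes are compared here per transcript length, as FPKM. In each group ITGB1, the beta chain that pairs with the most alpha chains, had the highest mean FPKM of the 38 genes. It had 95.1, 95.9 and 101 FPKM in hESC, 157, 142 and 137 in control NPC and 113, 104 and 134 with BafA1. The next places went in hESC to ITGB5 (50.6 ± 1.68, SD, n = 3) and ITGA6 (29.2 ± 0.403), a beta chain of vitronectin receptors and an alpha chain of laminin receptors. In control NPC they went to LAMB1 (39.2 ± 3.43) and LAMC1 (38 ± 6.86), whose spreads overlapped, and in BafA1 NPC to LAMB1 (66.7 ± 6.73) and LAMC1 (26.1 ± 2.87), whose spreads did not. The plot of FPKM by library shows these levels.

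**Figure D1:**
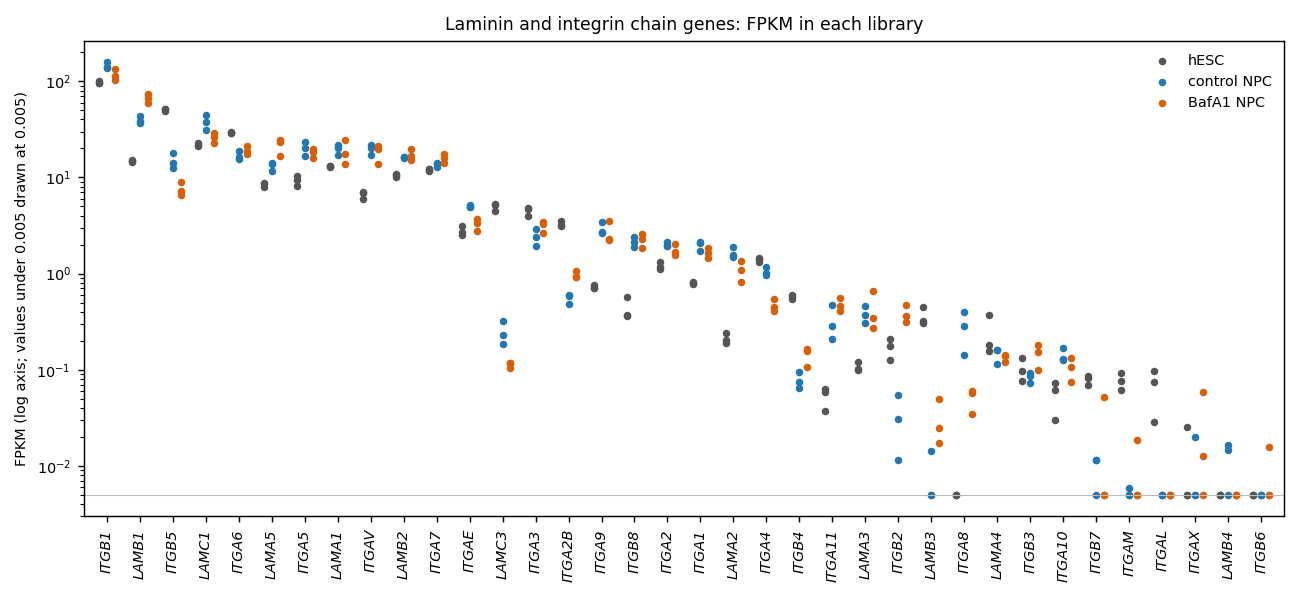
FPKM of laminin and integrin chain genes (log axis, values under 0.005 drawn at 0.005), 1 point per library, for hESC, control NPC and BafA1 NPC, ordered by level and without ITGAD, which had no count. ITGB1 is the highest in all groups, and ITGB5, LAMC3 and ITGA2B are well above the NPC libraries in hESC.

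The first comparison, control NPC against hESC, asks what the differentiation to day 11 did to these chains. The laminin chains LAMB1, LAMC1, LAMA1, LAMA5 and LAMA2 were among those higher in control NPC, while LAMC3 and LAMB3 fell to a small part of their hESC level. The collagen-binding alpha chains ITGA1, ITGA2, ITGA10 and ITGA11 were all higher, as were the RGD-binding chains ITGA5, ITGA8 and ITGAV. The RGD-binding chain ITGA2B was lower, as were the laminin-binding chains ITGA3, ITGA6 and ITGB4. Among beta chains ITGB1 and ITGB8 rose and ITGB5 fell. In numbers, 31 of the 34 tested genes passed the test (edgeR's quasi-likelihood test, Benjamini-Hochberg adjusted p under 0.05 over 20685 genes), 18 higher and 13 lower. Of all genes tested 64.5% passed, 33.0% higher and 31.6% lower, so most genes of any kind changed in this comparison. The median log2 fold change was 0.53 over the 34 genes and 0.03 over all genes. ITGA7, ITGB3 and LAMA4 did not pass.

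The second comparison, BafA1 NPC against control NPC, asks what BafA1 did to them, and it shares the control libraries with the first. LAMA5 and LAMB1, an alpha and a beta chain of basement membrane laminins, were higher with BafA1, while the gamma chains LAMC1 and LAMC3 were lower. The 4 laminin-binding integrin chains ITGA3, ITGA6, ITGA7 and ITGB4 were all higher, and ITGA4, ITGA8 and ITGB5, which bind fibronectin, nephronectin and vitronectin, were lower. The RGD-binding chain ITGA2B and its partner ITGB3 were higher, however, and the fibronectin and vitronectin receptor chains ITGA5 and ITGAV did not pass. The edgeR test called 18 of the 34 genes, 12 higher and 6 lower, against 41.5% of all genes, 20.8% higher and 20.7% lower. The median log2 fold change was 0.20 over the 34 genes and 0.00 over all genes. With library size alone in place of TMM the median over all genes moved to -0.12, the calls were 8 higher and 8 lower among these genes, and 3104 higher and 5681 lower among all genes. With limma on log2(FPKM + 1) they were 3 higher and 6 lower among these genes, and 2686 higher and 5297 lower among all. The calls of ITGA2B, ITGA4, ITGA8, ITGB2, ITGB5, LAMA5 and LAMB1 held in every alternative that could test them, and the other 11 are given below with the settings that ended them, each followed by its adjusted p in brackets. The plot of fold changes sets both comparisons side by side.

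**Figure D2:**
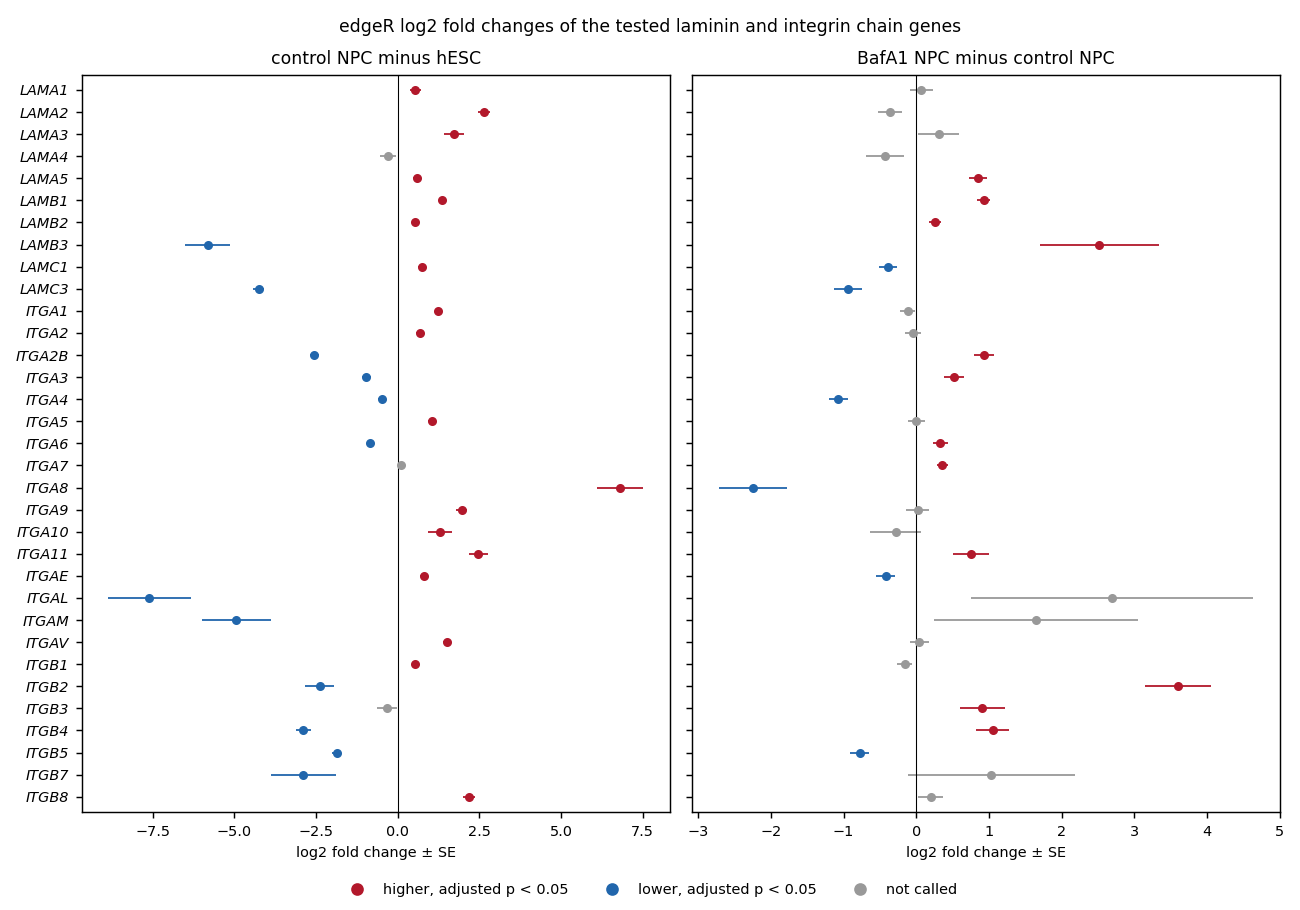
edgeR log2 fold changes with their standard errors for the tested genes the text reports, control NPC against hESC (left) and BafA1 NPC against control NPC (right), with calls in red (higher) and blue (lower) and the rest in grey. The right panel has the narrower axis, and LAMA5 and LAMB1 are red and ITGB5 is blue in both panels.

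LAMA5 and LAMB1 moved together, higher in both comparisons, and ITGB5 was lower in both, so the 250 bases before the start of each are shown with their base sequence. The letters are from RefSeq (GRCh38.p14), 5′ to 3′ on the gene's strand, which is the minus strand for all 3, and capitals mark a GC box, the letters GGGCGG or their reverse complement, which SP-family factors can bind. LAMA5 (chr20:62367313-62367562) holds 5 of them, LAMB1 (chr7:108003162-108003411) 4 and ITGB5 (chr3:124901419-124901668) 2. Other genes that moved the same way in both comparisons are not shown. LAMB2 and ITGA11, also higher in both, had 1 and 0 GC boxes, and ITGA4, also lower in both, had 0. LAMC3, lower in both too, had no matched promoter. A link between GC boxes and the direction of change was not tested.
LAMA5: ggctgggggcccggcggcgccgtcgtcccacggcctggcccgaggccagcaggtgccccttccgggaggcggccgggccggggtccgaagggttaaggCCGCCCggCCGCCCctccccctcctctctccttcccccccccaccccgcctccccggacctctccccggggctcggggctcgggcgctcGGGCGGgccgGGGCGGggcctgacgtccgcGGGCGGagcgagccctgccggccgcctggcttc
LAMB1: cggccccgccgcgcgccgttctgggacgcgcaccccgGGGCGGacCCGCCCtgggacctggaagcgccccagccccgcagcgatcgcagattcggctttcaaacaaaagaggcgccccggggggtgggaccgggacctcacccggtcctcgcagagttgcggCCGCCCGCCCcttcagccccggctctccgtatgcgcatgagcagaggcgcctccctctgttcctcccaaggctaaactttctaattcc
ITGB5: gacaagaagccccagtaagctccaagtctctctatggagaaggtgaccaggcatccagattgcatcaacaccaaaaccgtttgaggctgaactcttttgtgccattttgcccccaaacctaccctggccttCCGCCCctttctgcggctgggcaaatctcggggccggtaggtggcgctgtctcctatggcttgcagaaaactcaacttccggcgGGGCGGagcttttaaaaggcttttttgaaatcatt
RefSeq promoters were matched for 26 of the 38 genes, and 13 of these 26 windows held a GC box, against 42.2% of 27305 promoters of the same length. Among other motifs searched on both strands, GGAATG (TEAD) was in 4 of the 26 and in 12% of all, ACGTG (the HIF core) in 2 and in 18.7%, and TGANTCA (AP-1) in 1 and in 6.59%. A match in these letters is a description and not a binding site.

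Among laminin alpha chains, LAMA1, the chain of the first embryonic basement membranes (chr18:6941742-7117797, GRCh38), had 146, 149 and 142 CPM in hESC, 215, 179.8 and 239 in control NPC and 284, 173 and 206 with BafA1. It was higher in control NPC than in hESC (log2 0.54 ± 0.16 (SE), adjusted p = 0.0108), with no overlap between libraries, while the BafA1 and control libraries overlapped (log2 0.07 ± 0.16, adjusted p = 0.772, edgeR). LAMA5, the alpha chain found most widely in basement membranes and a substrate for stem cell culture (chr20:62309065-62367312), had 105, 116 and 111 CPM in hESC, 173, 177 and 151 in control NPC and 333, 245 and 324 with BafA1. The 3 groups did not overlap, and each step was a rise: log2 0.59 ± 0.12 (SE), adjusted p = 0.000796 from hESC to control NPC, and log2 0.85 ± 0.12 (SE), adjusted p = 0.000203 with BafA1. LAMA2, the alpha chain of muscle and peripheral nerve basement membranes (chr6:128883138-129516566), had 3.47, 2.47 and 2.68 CPM in hESC, 16.1, 20.2 and 17.6 in control NPC and 11.9, 14 and 16.1 with BafA1. All control libraries lay above all hESC libraries (log2 2.64 ± 0.17 (SE), adjusted p = 6.57e-08). With BafA1 its libraries overlapped those of the control and it did not pass the test (log2 -0.36 ± 0.16, adjusted p = 0.0852), but it passed as lower with scaling by library size alone (0.0194), limma on log2(FPKM + 1) (0.0148), limma on log2(FPKM + 0.1) (0.0297) and limma on all genes (0.0461).

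LAMA3, the alpha chain of the epidermal laminin that anchors hemidesmosomes (chr18:23689453-23955066), had 1.43, 1.25 and 1.26 CPM in hESC, 4.33, 3.28 and 5.42 in control NPC and 8.19, 3.63 and 4.33 with BafA1. It was higher in control NPC than in hESC (log2 1.72 ± 0.3 (SE), adjusted p = 0.000332), and BafA1 and control libraries overlapped. LAMA4, the alpha chain typical of vessel walls, was low in all groups, with means of 1.38, 1.12 and 0.841 CPM, and passed in neither comparison. The 8 endothelial markers summed to between 65.7 and 72.2 CPM in hESC, between 27 and 35.3 in control NPC and between 21.4 and 27 with BafA1, with PECAM1 at 0 in control NPC. TEK made up most of the sum in both NPC groups and passed in neither comparison, with means of 20.8, 22.3 and 20.4 CPM. KDR had means of 32.9, 6.94 and 2.8 CPM. Of the 8, 7 were lower in control NPC than in hESC, and 1 was higher and 2 lower in BafA1 NPC than in control NPC.

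The beta chain LAMB1 (chr7:107923799-108003161) had 101, 95 and 98.7 CPM in hESC, 269, 230.3 and 244 in control NPC and 458, 447 and 511 with BafA1. Like LAMA5 it rose in both steps without overlap, by log2 1.34 ± 0.09 (SE, adjusted p = 1.18e-07) and then by log2 0.93 ± 0.09 (SE, adjusted p = 2.81e-05). LAMB2, the beta chain of synapse and kidney filter laminins (chr3:49121114-49133050), had 70.9, 67.5 and 71.1 CPM in hESC, 102, 101 and 102 in control NPC and 135, 113 and 116 with BafA1. It was higher in control NPC (log2 0.54 ± 0.08 (SE), adjusted p = 0.000126) and higher again with BafA1 (log2 0.26 ± 0.08 (SE), adjusted p = 0.0278). The BafA1 call ended with scaling by library size alone (0.306), no filter on low counts (0.0516), limma on log2(FPKM + 1) (0.416), limma on log2(FPKM + 0.1) (0.415), limma on all genes (0.503) and a fit of the 6 libraries compared (0.074), and without control library 1 (0.0608), control library 2 (0.0922), control library 3 (0.0521) and BafA1 library 1 (0.0524). LAMB3, the beta chain of the epidermal laminin, had 1.79 ± 0.42 CPM (SD, n = 3) in hESC and 0.0282 ± 0.0488 in control NPC (log2 -5.82 ± 0.68 (SE), adjusted p = 1.19e-05). In BafA1 NPC it stood at 0.178 ± 0.0827 CPM (log2 2.52 ± 0.82, adjusted p = 0.0273), a call that ended with limma on all genes (0.569), and without control library 1 (0.076), control library 3 (0.0716) and BafA1 library 1 (0.0922). LAMB4 had no count in hESC, 12 counts over the control libraries and 3 over the BafA1 libraries.

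LAMC1, the gamma chain shared by most laminins (chr1:183023420-183145592), had 199, 195 and 207 CPM in hESC, 397, 327 and 281 in control NPC and 272, 238 and 254 with BafA1. It was higher in control NPC than in hESC (log2 0.74 ± 0.12 (SE), adjusted p = 0.000145) and lower with BafA1 (log2 -0.39 ± 0.12 (SE), adjusted p = 0.018), with no overlap in either comparison. The BafA1 call ended without control library 1 (0.0737), BafA1 library 2 (0.0618) and BafA1 library 3 (0.05), at a log2 fold change between -0.53 and -0.26 over all alternatives. LAMC3, a gamma chain known from skin, retina and brain surface (chr9:131009174-131094473), had 40.9, 37.6 and 37.1 CPM in hESC, 1.89, 2.64 and 1.53 in control NPC and 1.06, 1.02 and 1.07 with BafA1. It was lower at each step, with log2 -4.25 ± 0.17 (SE, adjusted p = 1.39e-09) and then log2 -0.94 ± 0.19 (SE, adjusted p = 0.00213). The second call ended with limma on log2(FPKM + 1) (0.116) and limma on all genes (0.176). The strand setting of the counting was not given in the sources used here.

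Of the chains of the epidermal laminin, LAMB3 was thus lower in control NPC than in hESC and LAMA3 was higher. The 9 markers of surface epithelium and keratinocytes summed to between 1966 and 2185 CPM in hESC, between 519 and 708 in control NPC and between 792 and 1088 with BafA1. Their keratinocyte members KRT5 and KRT14 had no count in any library. KRT8 and KRT18 made up most of the sum in both NPC groups. The means of these keratins were 422 and 157 CPM in control NPC and 632 and 219 CPM with BafA1. Of the 6 markers that could be tested, 5 were lower in control NPC. With BafA1 4 were higher (CDH1, KRT8, KRT18 and CLDN6) and 1 lower (GRHL2). The part of such cells in the laminin values was not tested.

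The share of each chain in the summed FPKM of its class shows the make-up of each class at the RNA level. Laminin alpha chains summed to 22 ± 0.588 FPKM in hESC, 35 ± 1.31 in control NPC and 41.8 ± 9.54 with BafA1 (SD, n = 3). LAMA5 made up 37, 38.5 and 39.1% of that sum in the hESC libraries, 38.3, 42.2 and 32.7% in control NPC and 48.2, 52 and 54.7% with BafA1, and LAMA1 most of the rest. The share of LAMA5 thus overlapped between hESC and control NPC and was above both in every BafA1 library. Beta chains summed to 25.8 ± 0.889, 55.3 ± 3.46 and 84.1 ± 7.94 FPKM, and LAMB1 took 57.3, 57.9 and 57.7%, then 72.7, 69.2 and 70.7%, then 77, 79.7 and 81.3% of them, without overlap. Gamma chains summed to 28.6 ± 0.638, 38.4 ± 6.88 and 26.3 ± 2.89 FPKM. LAMC1 held 76.2% ± 1.76 of them in hESC, 99.1% ± 0.146 in control NPC and 99.1% ± 0.118 with BafA1. LAMC3 held 17.4% ± 1.67 in hESC and 0.644% ± 0.182 in control NPC. With 3 libraries a group an exact permutation test cannot go below p = 0.1, so these shares are given without a test.

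**Figure D3:**
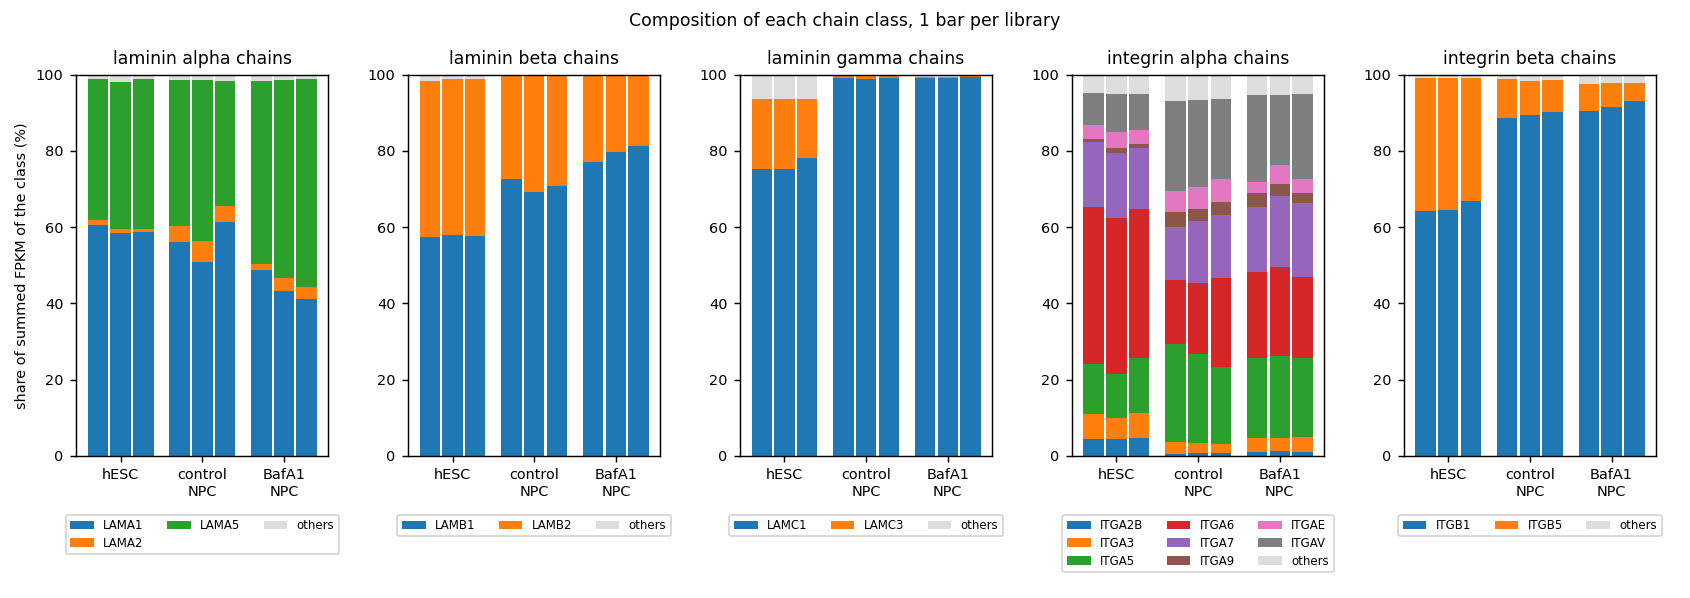
Share of each chain in the summed FPKM of its class (%), 1 bar per library, with the smaller chains of a class joined as others. LAMB1, LAMC1 and ITGB1 take a larger share of their class in NPC than in hESC, and LAMA5 takes 51.6% ± 3.26 of laminin alpha FPKM in BafA1 NPC against 37.7% ± 4.79 in control NPC.

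Of the laminin receptors, ITGA6, the alpha chain that pairs with beta1 or beta4 (chr2:172427336-172506459), had 196, 195 and 185 CPM in hESC, 96.9, 101 and 122 in control NPC and 145, 131 and 128 with BafA1. It was lower in control NPC (log2 -0.85 ± 0.1 (SE), adjusted p = 1.03e-05) and partly higher again with BafA1 (log2 0.33 ± 0.1 (SE), adjusted p = 0.0165), a call that ended with scaling by library size alone (0.14), limma on log2(FPKM + 1) (0.136), limma on log2(FPKM + 0.1) (0.132) and limma on all genes (0.199), and without control library 1 (0.0657) and control library 2 (0.0768). ITGA3, the alpha chain of another beta1 laminin receptor (chr17:50056110-50090481), had 26.5, 22.8 and 26.6 CPM in hESC, 15.7, 12.8 and 10.6 in control NPC and 18.9, 16.7 and 20.5 with BafA1. It too was lower in control NPC than in hESC (log2 -0.96 ± 0.14 (SE), adjusted p = 8.5e-05) and higher with BafA1 (log2 0.52 ± 0.14 (SE), adjusted p = 0.0114), and the second call ended with limma on log2(FPKM + 1) (0.088), limma on log2(FPKM + 0.1) (0.087) and limma on all genes (0.177). ITGA7, the laminin receptor chain best known from muscle (chr12:55684568-55716400), had 58.8, 59.1 and 55.5 CPM in hESC, 59, 64.8 and 63.5 in control NPC and 77.9, 75.8 and 86.9 with BafA1. Its hESC and control libraries overlapped (log2 0.11 ± 0.08, adjusted p = 0.246), and it was called higher with scaling by library size alone (0.028), GC and length trends removed (0.00319) and GC and length trends removed with replicate block (0.00328). All BafA1 libraries lay above the control (log2 0.36 ± 0.08 (SE), adjusted p = 0.00389), a call that ended with limma on log2(FPKM + 1) (0.0797), limma on log2(FPKM + 0.1) (0.0786) and limma on all genes (0.0994). ITGA7 overlaps BLOC1S1, which had 31.7 to 54.9 CPM. The 6 skeletal muscle markers summed to between 40.2 and 54.6 CPM in hESC, between 6.58 and 7.76 in control NPC and between 6.7 and 8.43 with BafA1, with MYOG at 0 in every library. Most of the hESC sum was TTN, at 35.5, 49.2 and 36 CPM. ACTA1, skeletal muscle actin, was higher at both steps, with 0.507, 0.166 and 0.597 CPM in hESC, 1.69, 1.35 and 1.48 in control NPC and 5.15, 3.46 and 3.63 with BafA1 (log2 1.81 and then 1.44). DES, the gene for desmin, was lower in control NPC (log2 -1.98) and higher with BafA1 (log2 1.65), with overlapping BafA1 and control libraries, and MYH3 was lower with BafA1 (log2 -1.08). The part of these markers in the ITGA7 difference was not tested.

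ITGB4, which joins ITGA6 in hemidesmosomes, had 3.94 ± 0.132 CPM in hESC and 0.527 ± 0.1004 in control NPC, a fall (log2 -2.89 ± 0.23 (SE), adjusted p = 3.85e-07). It was 1.09 ± 0.191 CPM in BafA1 NPC, a rise from the control (log2 1.05 ± 0.23 (SE), adjusted p = 0.00365) that ended with limma on log2(FPKM + 1) (0.262), limma on log2(FPKM + 0.1) (0.0678) and limma on all genes (0.0582). Its gene overlaps GALK1, at 12.7 to 28.7 CPM. All 4 laminin-binding chains were therefore called higher with BafA1 in edgeR, and none of the 4 calls held with limma on all genes. Adding 1 to FPKM shrinks fold changes by construction, most in genes under 1 FPKM. ITGB4 was such a gene, with 0.0774 FPKM in control NPC and 0.142 with BafA1, and its log2 fold change was 0.08 there. LAMB3, ITGB3 and ITGA11 were others, at log2 0.04, 0.08 and 0.16 with limma on all genes. ITGA3, ITGA6 and ITGA7 were above 1 FPKM in every group. Their log2 fold changes with BafA1 were 0.27, 0.18 and 0.2 with limma on log2(FPKM + 1). With limma on log2(FPKM + 0.1) they were 0.37, 0.19 and 0.21. The medians over all genes in these fits were -0.09 and -0.13.

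Receptors for fibronectin and vitronectin come next. ITGA5, the alpha chain of the main fibronectin receptor (chr12:54395261-54419266), had 46.7, 40.2 and 50.5 CPM in hESC, 109.8, 93.4 and 79.3 in control NPC and 99.6, 89.1 and 93.8 with BafA1. ITGAV, the alpha chain of vitronectin receptors and of the integrins that activate latent TGF-beta (chr2:186590056-186680901), had 49.2, 58.3 and 55.2 CPM in hESC, 169, 155 and 135 in control NPC and 179, 127 and 168 with BafA1. Both were higher in control NPC than in hESC, ITGA5 by log2 1.04 ± 0.12 (SE, adjusted p = 1.18e-05) and ITGAV by log2 1.5 ± 0.13 (SE, adjusted p = 9.77e-07), without overlap. With BafA1 their libraries overlapped those of the control, and the fitted differences were log2 0.00 ± 0.12 and 0.04 ± 0.13 (SE).

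ITGA8, the receptor chain for nephronectin (chr10:15513954-15719922), was nearly absent from hESC, with 3 counts over the 3 libraries against 350 in control NPC, a ratio per library size of 124 (41.9 to 602, 95% counting interval). It had 3.04, 2.16 and 1.13 CPM in control NPC and 0.51, 0.536 and 0.295 with BafA1, a fall beyond the spread of the libraries (log2 -2.25 ± 0.47 (SE), adjusted p = 0.0027). ITGA2B, the platelet fibrinogen receptor chain (chr17:44372181-44389649), had 12.5, 12.2 and 13.5 CPM in hESC, 1.89, 2.25 and 2.32 in control NPC and 4.32, 4.14 and 3.84 with BafA1. It was lower in control NPC (log2 -2.56 ± 0.14 (SE), adjusted p = 1.97e-08) and higher with BafA1 (log2 0.93 ± 0.14 (SE), adjusted p = 0.000386), without overlap. The 6 megakaryocyte markers summed to between 3.18 and 3.46 CPM in hESC, between 0.0507 and 0.176 in control NPC and between 0.0728 and 0.124 with BafA1, and GP9, GP1BA, PF4 and PPBP had no count in either NPC group.

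The 4 collagen-binding alpha chains were all higher in control NPC than in hESC. ITGA1 (chr5:52787916-52959209) had 10.1, 10.3 and 9.62 CPM in hESC, 25.5, 24.3 and 21 in control NPC and 23.7, 20.4 and 21.1 with BafA1. ITGA2 (chr5:52989352-53094779), which lies next to it and also binds collagen, had 10.5, 10.3 and 11.8 CPM in hESC, 16.8, 16.6 and 18.8 in control NPC and 18.7, 15.9 and 15.7 with BafA1. ITGA1 was higher by log2 1.24 ± 0.11 (SE, adjusted p = 7.62e-07) and ITGA2 by log2 0.68 ± 0.11 (SE, adjusted p = 0.000216), both without overlap, and for both the BafA1 libraries overlapped the control. ITGA1 contains PELO, at 26.2 to 56.6 CPM, so reads of the 2 genes may be mixed.

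ITGA11, a collagen receptor of fibroblasts (chr15:68296532-68432163), had 0.461, 0.718 and 0.733 CPM in hESC, 4.93, 3.23 and 2.43 in control NPC and 6.68, 5.44 and 5.62 with BafA1. It rose from hESC to control NPC (log2 2.47 ± 0.29 (SE), adjusted p = 1.07e-05) and again with BafA1 (log2 0.75 ± 0.25 (SE), adjusted p = 0.0332). The BafA1 call ended with scaling by library size alone (0.0744) and limma on all genes (0.156), and without control library 2 (0.107), control library 3 (0.1), BafA1 library 1 (0.0922), BafA1 library 2 (0.0517) and BafA1 library 3 (0.0626). ITGA10, known from cartilage, was low, at 0.345 ± 0.133 CPM in hESC, 0.839 ± 0.126 in control NPC and 0.692 ± 0.187 with BafA1, and passed only against hESC (log2 1.29 ± 0.37 (SE), adjusted p = 0.00861). ITGA8 and ITGA11 went in opposite directions with BafA1, as did mesenchyme markers: COL1A1 (mean 1211 CPM in control and 1963 with BafA1), COL1A2 and ACTA2 were higher, and LUM, DCN and PRRX1 lower. The part of mesenchymal cells in these integrin values was not tested.

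ITGA4, a receptor chain for fibronectin and VCAM1 (chr2:181457205-181538940), had 10.5, 11.2 and 11 CPM in hESC, 8.49, 7.6 and 7.36 in control NPC and 3.66, 3.58 and 3.93 with BafA1. It was lower at both steps, slightly in control NPC (log2 -0.48 ± 0.12 (SE), adjusted p = 0.0041) and more with BafA1 (log2 -1.07 ± 0.13 (SE), adjusted p = 7.6e-05), and no groups overlapped. ITGA9, its nearest relative and a tenascin receptor (chr3:37452141-37823507), had 6.42, 7.03 and 6.36 CPM in hESC, 30.1, 22.9 and 23.8 in control NPC and 33, 23.4 and 21.2 with BafA1. It went the other way between hESC and control NPC (log2 1.95 ± 0.17 (SE), adjusted p = 8.19e-07), and its BafA1 and control libraries overlapped. The plot of 8 genes by library shows ITGA4 beside LAMA5 and LAMB1.

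**Figure D4:**
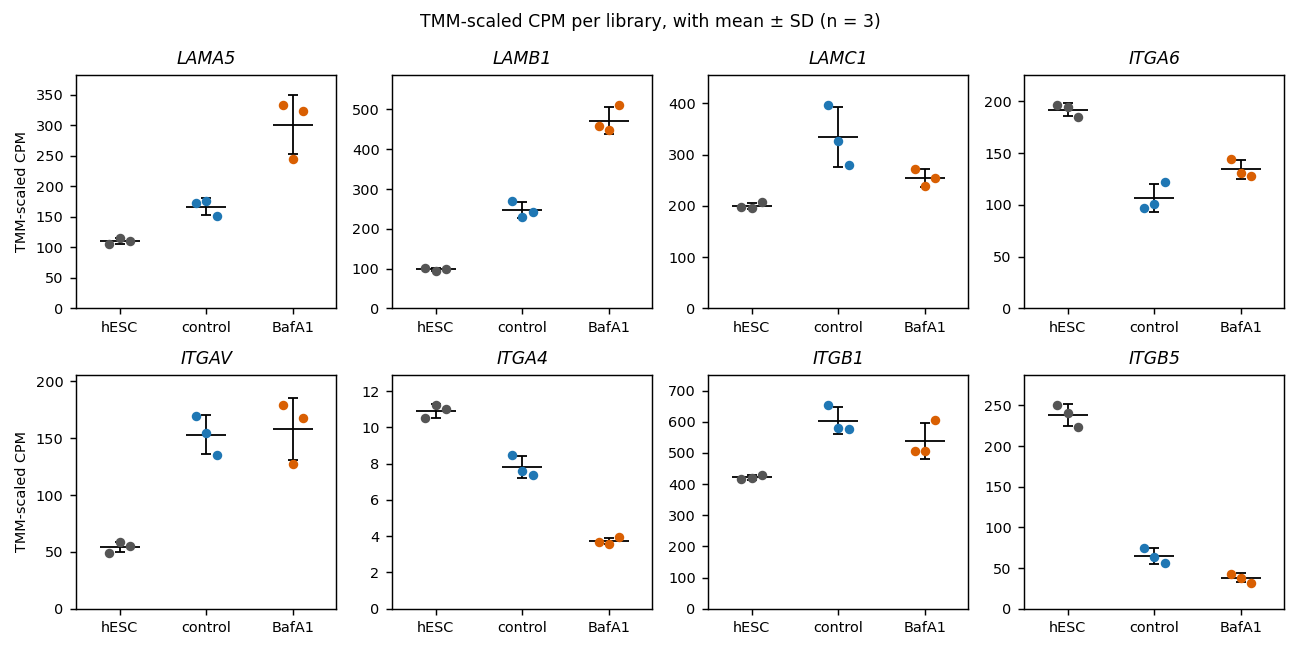
TMM-scaled CPM in each library (points) with mean and SD (n = 3) for LAMA5, LAMB1, LAMC1, ITGA6, ITGAV, ITGA4, ITGB1 and ITGB5, each axis starting at 0. LAMA5 and LAMB1 step up from hESC to control NPC to BafA1 NPC, ITGA4 and ITGB5 step down, and ITGAV and ITGB1 overlap between the 2 NPC groups.

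Among the beta chains, ITGB1 (chr10:32900318-32958230) had 415, 420.3 and 430.5 CPM in hESC, 653, 580.4 and 577 in control NPC and 506, 506 and 605 with BafA1. It was higher in control NPC than in hESC (log2 0.52 ± 0.1 (SE), adjusted p = 0.000592). Its BafA1 libraries overlapped the control and did not pass (log2 -0.16 ± 0.1, adjusted p = 0.206), though it passed as lower with scaling by library size alone (0.0175), limma on log2(FPKM + 1) (0.0245) and limma on log2(FPKM + 0.1) (0.0243). ITGB5, the beta chain of a vitronectin receptor (chr3:124761948-124901418), had 250.04, 241 and 224 CPM in hESC, 75.1, 64.1 and 55.9 in control NPC and 43.2, 38.3 and 32.2 with BafA1. It fell by 1.87 ± 0.13 (log2, SE, adjusted p = 1.09e-07) and then by 0.78 ± 0.13 (adjusted p = 0.000548), each time without overlap. ITGB8, the beta chain of an integrin that activates latent TGF-beta in neuroepithelium (chr7:20329766-20415754), had 3.89, 6.07 and 3.89 CPM in hESC, 18.2, 22.6 and 21.5 in control NPC and 23.6, 20.7 and 27.3 with BafA1. It rose between hESC and control NPC (log2 2.17 ± 0.18 (SE), adjusted p = 6.27e-07), and BafA1 libraries overlapped the control. ITGB3, the partner of ITGA2B and ITGAV, was at 0.708 ± 0.185, 0.567 ± 0.0724 and 1.06 ± 0.268 CPM. It was called higher with BafA1 (log2 0.91 ± 0.31 (SE), adjusted p = 0.032) and the call ended with scaling by library size alone (0.0646) and limma on all genes (0.0939), and without control library 1 (0.0668), control library 2 (0.111), BafA1 library 1 (0.0957) and BafA1 library 3 (0.0754). ITGB6, an epithelial partner of ITGAV, had no count in hESC or control NPC and 5 counts over the BafA1 libraries.

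ITGB5 made up 34.8, 34.6 and 32.3% of all integrin beta chain FPKM in the hESC libraries, 10.1, 8.89 and 8.19% in control NPC and 7.09, 6.38 and 4.61% with BafA1, with no overlap between groups. ITGB1 held 65.2% ± 1.44 in hESC, 89.5% ± 0.769 in control NPC and 91.7% ± 1.29 with BafA1. Per length, ITGB8 had 0.364, 0.575 and 0.368 FPKM in hESC and 1.89, 2.38 and 2.15 in control NPC, while ITGB5 had 51.5, 51.6 and 48.6 FPKM in hESC and 17.9, 14.1 and 12.4 in control NPC, so ITGB5 was still the higher of the pair. On the alpha side ITGA6 took 40.5% ± 1.06 of alpha chain FPKM in hESC and 19.5% ± 3.28 in control NPC. ITGAV took 9.22% ± 0.804 and 22.5% ± 1.48, and ITGA5 12.9% ± 1.4 and 23% ± 2.58. In control NPC the shares of ITGA5, ITGAV and ITGA6 overlapped, whereas in hESC ITGA6 was above every other alpha chain in each library. With BafA1 the same 3 chains held 21% ± 0.352, 21.2% ± 2.3 and 22.4% ± 1.19. From counts per kilobase of exon-union length, in place of FPKM, ITGA5 held 17.5% in control NPC, below ITGAV with 26.3% and ITGA6 with 23.1%, and with BafA1 it held 16%.

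The integrin chains named for leukocytes were low. ITGAE, which pairs with ITGB7 to bind E-cadherin (chr17:3714628-3801188), was the exception, with 12.8, 15.4 and 13.2 CPM in hESC, 24, 23.8 and 24.7 in control NPC and 14.6, 21.1 and 18.6 with BafA1. It was higher in control NPC (log2 0.81 ± 0.13 (SE), adjusted p = 0.000169) and lower with BafA1 (log2 -0.42 ± 0.13 (SE), adjusted p = 0.0219), and the second call ended without control library 2 (0.0539) and BafA1 library 1 (0.0591). HASPIN lies within ITGAE and had 11.5 to 22.9 CPM, so that reads of the 2 may be mixed. Its partner ITGB7 was at 0.28 ± 0.0364 CPM in hESC and 0.0361 ± 0.0315 in control NPC. That call (log2 -2.89 ± 0.99 (SE), adjusted p = 0.0217) ended without hESC library 1 (0.0592), hESC library 2 (0.0523), control library 2 (0.0518) and control library 3 (0.0756), and ITGB7 overlaps ZNF740, at 25.2 to 49.9 CPM. E-cadherin itself (CDH1) had 358, 324 and 357 CPM in hESC, 0.27, 0.338 and 0.246 in control NPC and 1.37, 0.731 and 0.947 with BafA1.

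ITGAL, a chain of the leukocyte receptor for ICAM1, had 78 counts over the hESC libraries and none in control NPC, so it was at least 7.91-fold lower there, taking 3 counts per library as the limit. ITGAM, of the complement receptor, had 77 counts in hESC and 2 in control NPC, a ratio of 36.3 (9.73 to 305). Their beta chain ITGB2 had 0.737, 0.442 and 0.614 CPM in hESC, 0.0385, 0.101 and 0.194 in control NPC and 1.13, 1.41 and 1.61 with BafA1. It was lower in control NPC (log2 -2.39 ± 0.45 (SE), adjusted p = 0.00059) and higher with BafA1 (log2 3.6 ± 0.45 (SE), adjusted p = 0.000102), above its hESC level in every BafA1 library. Of its partner chains, ITGAL and ITGAM had at most 2 counts in each NPC library, except for 7 counts of ITGAM in BafA1 library 3. ITGAX, another partner, was not tested and had 0, 6 and 0 counts in control NPC and 4, 0 and 22 with BafA1, so most of its counts came from BafA1 library 3. The 8 leukocyte markers summed to between 27.3 and 28.9 CPM in hESC, between 15.8 and 18.1 in control NPC and between 10.3 and 13.4 with BafA1, mostly from CORO1A and LCP1. Of the 6 tested, 1 was higher and 3 were lower in control NPC than in hESC, and 2 were lower and none higher with BafA1 than in control NPC. PTPRC, the pan-leukocyte gene for CD45, was the higher one, at 0 in each hESC library, against 0.828, 1.39 and 1.48 CPM in control NPC and 0.929, 0.829 and 1.16 with BafA1, where it was not called (log2 -0.33 ± 0.32 (SE), edgeR adjusted p = 0.437). CD53 had no count in either NPC group. The part of leukocyte RNA in the ITGB2 difference was not tested. The antisense gene ITGB2-AS1 had 0.092 to 0.543 CPM.

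The other proteins of the basement membrane were mostly higher in control NPC than in hESC. Of 24 genes for them, all tested, 17 were higher and 3 lower in control NPC than in hESC (70.8% and 12.5% of those tested, against 33.0% and 31.6% of all genes), with a median log2 fold change of 1.03. NID2, a nidogen that links laminin to collagen IV, rose from 7.55 ± 0.349 to 48.7 ± 1.8 CPM (edgeR log2 2.69 ± 0.1 (SE), adjusted p = 9.43e-10), and FREM1, a protein of embryonic basement membranes, from 8.74 ± 0.0907 to 182 ± 12.1 CPM (log2 4.38). With BafA1 10 were higher and 2 lower (41.7% and 8.33% of those tested, against 20.8% and 20.7% of all genes), with a median of 0.33. COL4A1, a collagen IV chain, had 434, 354 and 297 CPM in control and 703, 689 and 923 with BafA1 (edgeR log2 1.09 ± 0.15 (SE), adjusted p = 0.000204). HSPG2, the heparan sulfate proteoglycan perlecan, had 137, 141 and 148 CPM in control and 333, 218 and 297 with BafA1 (log2 1.00), and LOXL2, a collagen cross-linking enzyme, was higher by log2 1.23. With library size alone 7 were higher and 2 lower with BafA1.

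Genes listed as other ligands of these integrins changed in both directions. Of 26 tested, 16 were higher and 8 lower in control NPC (61.5% and 30.8% of those tested, against 33.0% and 31.6% of all genes), with a median log2 fold change of 1.04. With BafA1 7 were higher and 5 lower (26.9% and 19.2% of those tested, against 20.8% and 20.7% of all genes), a balance that turned to 5 higher and 7 lower with limma. LGI1, a secreted neuronal protein on this list whose binding to integrins was not tested, rose from 0.1996 ± 0.0555 to 67.1 ± 7.57 CPM. MFGE8, an RGD protein that ITGAV with ITGB5 binds, was lower with log2 -2.61 ± 0.09 (SE, adjusted p = 2.14e-10). With BafA1 the matrix-associated signalling proteins CCN1 and CCN2 and the thrombospondin THBS1 were higher. CCN1 had 60.8, 51.9 and 76.4 CPM in control and 249, 267 and 291 with BafA1 (edgeR log2 2.09 ± 0.13 (SE), adjusted p = 4.68e-06). CCN2 was higher by log2 1.68 ± 0.09 and THBS1 by 1.00 ± 0.09 (SE).

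Inside the cell, integrins act through talin, kindlin, the ILK complex and focal adhesion kinases. Of 46 genes for this machinery, 17 were higher and 19 lower in control NPC than in hESC (37% and 41.3% of those tested, against 33.0% and 31.6% of all genes), with a median log2 fold change of -0.08. The actin cross-linker FLNC (log2 4.04 ± 0.16), the scaffold NEDD9 (3.68 ± 0.09) and PARVA of the ILK complex (1.93 ± 0.11) were among the higher. With BafA1 14 were higher, including PARVB (log2 0.92 ± 0.12) and NEDD9 (0.6 ± 0.08), and 5 lower (30.4% and 10.9% of those tested, against 20.8% and 20.7% of all genes). Library size alone gave 10 higher and 8 lower. Of 24 genes for membrane partners and trafficking of integrins, 7 were higher and 12 lower in control NPC (29.2% and 50.0% of those tested, against 33.0% and 31.6% of all genes), with a median log2 fold change of -0.31. The tetraspanin CD9 fell from 203 ± 21.4 to 3.91 ± 0.879 CPM and RAB25, which recycles integrins, from 48.2 ± 4.21 to 0.476 ± 0.176, whereas the endocytic adaptor DAB2 rose (log2 3.42 ± 0.22). With BafA1 13 were higher and 2 lower (54.2% and 8.33% of those tested, against 20.8% and 20.7% of all genes), and 9 higher and 5 lower with library size alone. SLC3A2, which binds beta1 tails, was higher by log2 1.01 ± 0.11, the tetraspanin TSPAN4 by 0.61 ± 0.07 and basigin (BSG) by 0.99 ± 0.13.

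Of 15 genes that cleave or help to assemble laminin and integrin chains, 7 were higher and 4 lower in control NPC (46.7% and 26.7% of those tested, against 33.0% and 31.6% of all genes), with a median log2 fold change of 0.32. With BafA1 2 were higher and 2 lower (13.3% and 13.3% of those tested, against 20.8% and 20.7% of all genes). BMP1, a protease that trims laminin chains, rose from 6.42 ± 0.158 to 28.3 ± 3.19 CPM (edgeR log2 2.14 ± 0.12 (SE), adjusted p = 1.89e-08), and the gelatinase MMP2 was higher by log2 2.47 ± 0.16. With BafA1 the membrane protease MMP14 was lower (log2 -0.75 ± 0.15) and the disulfide isomerase P4HB higher (log2 0.7 ± 0.12). With library size alone the BafA1 balance was 1 higher and 4 lower.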

How the data were processed

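The labels' protocols describe RNA sequencing libraries prepared with a stranded mRNA kit. Trimmomatic and GRCh38 are named per the submitters' processing notes, and the aligner, the counting tool and its strand setting were not given in the sources used here. Per the file headers, the authors deposited unnormalised read counts and FPKM values for each gene. The count table holds 46427 genes. All 9 columns were matched by name to their samples. The 38 genes and all gene and marker lists were chosen with earlier results of these data known.

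Genes with low counts were removed by edgeR's filterByExpr, leaving 20685. edgeR 4.0.16 (TMM, glmQLFit, glmQLFTest, two-sided, R 4.3.3) was fitted to all 9 libraries with 1 term per group, and Benjamini-Hochberg adjustment covered every tested gene, with 0.05 as threshold. Quoted CPM are TMM-scaled. On simulated counts of 20685 genes the fit recovered 94.6% of changes of log2 1 for BafA1 against control, placed in 93 genes. Only genes with a mean above 5 CPM were given a change, so this rate does not cover lower genes or smaller changes. Far fewer genes were changed in the simulation than passed in the data. Composition shares are deposited FPKM divided by the sum over the class. Genes without a count were given a floor of 3 counts per library, and intervals cover counting error only. Values in every library are given for genes called in a comparison and reaching 5 CPM in a group mean. A few others were chosen after their values were seen (ITGA8, ITGB2, CDH1, ACTA1, PTPRC and, as counts in NPC, ITGAX). From each list other than the marker lists, up to 3 genes with the smallest adjusted p in each comparison are named. Marker genes were named after their values were seen. A few genes counted in the totals are not reported here. Alternatives were library size alone, upper quartile scaling, DESeq2 1.42.0, no filter, limma 3.58.1 on log2(FPKM + 1) and log2(FPKM + 0.1), fits of the groups compared, a replicate block, removal of GC and length trends, and leaving out each library. Coordinates are from RefSeq (GRCh38.p14).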

Additional observations from a re-analysis of the deposited data

How the results depend on the processing

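Of the 31 calls between control NPC and hESC, 30 were the same in every alternative that could test them, and of the 18 with BafA1, 7. The filter on low FPKM left 23 of the 38 genes in the limma fits, other than the one of all genes. With limma on log2(FPKM + 1) and on log2(FPKM + 0.1), 8 of these genes were lower in control NPC than in hESC in each fit, against 13. With BafA1, 3, 3 and 4 were higher with limma on log2(FPKM + 1), on log2(FPKM + 0.1) and on all genes, against 12, and among all genes tested the counts were 2686, 2683 and 2520, against 4309. The cause was not tested. Shares computed from counts per kilobase of exon-union length, in place of deposited FPKM, were for hESC, control NPC and BafA1 NPC 44.4%, 43.2% and 57.4% for LAMA5, 53.3%, 67.2% and 76.6% for LAMB1, 47.1%, 23.1% and 26.5% for ITGA6, 10.6%, 26.3% and 24.6% for ITGAV, and 9.69%, 17.5% and 16% for ITGA5, with the order of the groups kept. The exon-union length differs from the transcript lengths behind FPKM by construction.

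The sign changed in at least 1 alternative for some genes that did not pass with BafA1, and no gene that passed changed sign. Their log2 fold changes were near 0 in most of these. With GC and length trends removed they were 0.04 for ITGA2 and -0.00032 for ITGA5. With the same removal with the replicate block they were 0.04 for ITGA2. With library size alone they were -0.12 for ITGA5, -0.1 for ITGA9, -0.08 for ITGAV and -0.05 for LAMA1. With no filter on low counts they were -0.0047 for ITGA5. With limma on log2(FPKM + 1) they were -0.14 for ITGA5, -0.11 for ITGA9, -0.11 for ITGAV and -0.1 for LAMA1. With limma on log2(FPKM + 0.1) they were -0.14 for ITGA5, -0.14 for ITGA9, -0.11 for ITGAV and -0.11 for LAMA1. With limma on all genes they were -0.14 for ITGA5, -0.11 for ITGA9, -0.11 for ITGAV and -0.1 for LAMA1. Leaving out 1 library at a time gave -0.13 to 0.0045 for ITGA2, -0.11 to 0.12 for ITGA5, -0.19 to 0.15 for ITGA9, -2.64 to 4.29 for ITGAM, -0.04 to 0.18 for ITGAV, -1.66 to 1.67 for ITGB7, -0.14 to 0.21 for LAMA1 and -0.11 to 0.53 for LAMA3.

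In both comparisons, deviations of same-numbered libraries from their group means had correlations between -0.0554 and 0.0877. The main fit did not pair libraries by number, and correlations this weak cannot show whether same-numbered libraries shared a culture. With the replicate block, 18 higher and 13 lower calls were made against hESC and 12 higher and 6 lower ones with BafA1, as without it. Depth limits the genes under about 1 CPM, such as ITGB7, LAMB3 and ITGAM, where a few counts set the fold change.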

Other observations

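Some integrins with ITGAV release TGF-beta from its latent complex. A list of 9 genes was tested, for TGF-beta ligands, the LTBP family and proteins that hold latent TGF-beta on cells. Which of them ITGAV integrins act on was not tested. In control NPC 6 were higher and 3 lower than in hESC (66.7% and 33.3% of those tested, against 33.0% and 31.6% of all genes). TGFB2 rose from 0.93 ± 0.154 CPM (SD, n = 3) to 57.1 ± 9.93 (edgeR log2 5.95 ± 0.17 (SE), adjusted p = 8.85e-11), while LTBP4, a latent TGF-beta binding protein, was lower with log2 -1.03 ± 0.09 (SE, adjusted p = 6.02e-07) and NRROS, which holds latent TGF-beta on microglia, fell from 6.03 ± 1.02 to 0.47 ± 0.143 CPM. With BafA1 3 were higher and 1 lower (33.3% and 11.1% of those tested, against 20.8% and 20.7% of all genes). TGFB1 (log2 0.87 ± 0.17), TGFB2 (0.73 ± 0.13) and LTBP4 (0.84 ± 0.09) were higher and NRROS lower (-1.52 ± 0.35). Both NPC groups had received SB431542, which inhibits the TGF-beta receptor.

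Dystroglycan, its glycosylating enzymes and BCAM are laminin receptors outside the integrin family. Of 26 such genes, control NPC had 14 higher and 6 lower than hESC (53.8% and 23.1% of those tested, against 33.0% and 31.6% of all genes), with a median log2 fold change of 0.5. LARGE2, which adds the laminin-binding sugar chain to dystroglycan, fell from 65.8 ± 3.08 to 0.163 ± 0.143 CPM, and SGCE, a sarcoglycan, was higher by log2 1.23 ± 0.1. BCAM, a receptor for the laminin alpha5 chain, had 71.2, 65.1 and 67.1 CPM in hESC, 28, 24 and 29.3 in control NPC and 58.5, 51.5 and 55.8 with BafA1. It was lower in control NPC (edgeR log2 -1.33 ± 0.09 (SE), adjusted p = 1.44e-07) and higher with BafA1 (log2 1.03 ± 0.09 (SE), adjusted p = 1.93e-05). With BafA1 8 of the list were higher and 6 lower (30.8% and 23.1% of those tested, against 20.8% and 20.7% of all genes), which turned to 5 and 10 with library size alone.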
